A study of Homo sapiens with 6 samples.

Results

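The 5 microRNA transcript clusters described here lay lower in selamectin-treated breast cancer cells, and each is set beside the gene that contains it. The pairs are MIR21 with VMP1, MIR15A with DLEU2, MIR15B with SMC4, MIR32 with TMEM245 and MIR148B with COPZ1. A transcript cluster is the set of array probes assigned to 1 locus. Each of the 10 symbols had 1 cluster with no other symbol on it, so there were 10 clusters among 18417 gene symbols on 19460 single-symbol clusters. The 5 microRNAs were chosen by their log2 difference and its adjusted p in selamectin against untreated cells on these same arrays, so their values below are a description and carry no test. The host genes were chosen because they contain the microRNAs, with the same contrast already known, and are also described without a test.

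RNA from 2 groups of 3 cultures was hybridised to Affymetrix whole-transcript arrays, all from MDA-MB-231, a human cell line of triple-negative breast cancer that is mesenchymal in form. One group received 1 µM selamectin for 24 h, an antiparasitic macrocyclic lactone of the avermectin class, which the series title presents as inhibitors of the SIN3 corepressor. The titles call the other group untreated, while the protocol speaks of a vehicle, so what these cultures received is not settled. All cultures are of 1 line and were sub-confluent, and the design text calls the replicates independent without saying how they were kept apart. The mesenchymal marker VIM had a mean log2 value of 12.90 with selamectin and 12.67 untreated. CD44 had 10.91 with selamectin and 10.48 untreated (limma adjusted p = 0.021), and AXL had 9.65 and 9.595. FN1 had 8.20 with selamectin and 8.63 untreated and ZEB1 had 9.47 and 9.55, so these mesenchymal markers did not move one way. The epithelial marker CDH1 had 6.01 with selamectin and 6.27 untreated, and EPCAM had 5.97 and 6.24 on 1 cluster and 5.38 and 5.70 on the other. Not all epithelial and luminal markers were dim. KRT18 had 13.49 with selamectin and 13.41 untreated on 1 cluster and 13.32 and 13.25 on the other, and ERBB2 had 9.08 and 9.17. GATA3 had 7.31 with selamectin and 7.16 untreated, and PGR had 5.74 and 5.60. The estrogen receptor ESR1 had 5.92 with selamectin and 5.92 untreated on 1 cluster, and 6.80 and 6.97 on the other. The leukocyte marker PTPRC lay at 4.83 with selamectin and 4.84 untreated, while the endothelial cadherin CDH5 lay at 8.93 with selamectin and 9.52 untreated. The other endothelial markers were dim, with VWF at 5.96 with selamectin and 5.78 untreated, and PECAM1 at 5.59 and 5.48 on 1 cluster and 4.25 and 4.28 on the other. The median cluster lay at 8.21. Detection calls were not used here, so no transcript can be called absent.

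MicroRNAs are cut from longer primary transcripts. In the nucleus DROSHA and DGCR8 release a hairpin, XPO5 carries it to the cytoplasm, and DICER1 trims it to a duplex from which an Argonaute protein keeps one strand. The bases at positions 2 to 8 of that strand, the seed, choose the messenger RNAs that are repressed. Many microRNA genes lie inside other genes and can be made from the host transcript or from a promoter of their own. MIR21 lies near the end of VMP1 and is known to have its own promoter. It is one of the best known microRNAs raised in breast tumours, where it represses tumour suppressors such as PDCD4. MIR15A and MIR16-1 lie together in the long noncoding RNA DLEU2, in a region often deleted in chronic lymphocytic leukaemia, and MIR15B and MIR16-2 lie together in SMC4. Both pairs repress BCL2 and G1 cyclins. MIR32 belongs to a family with MIR25 and the MIR92 genes, and MIR148B to a family with MIR148A and MIR152 that is known for targeting DNA methyltransferases.

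The mature strands show which of the 5 share a seed. Sequences are from RefSeq on GRCh38.p14, written 5′ to 3′, with the seed in capitals. All 5 member microRNAs and both MIR16 genes were matched by symbol.
hsa-miR-21-5p: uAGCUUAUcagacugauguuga
hsa-miR-15a-5p: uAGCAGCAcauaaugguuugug
hsa-miR-15b-5p: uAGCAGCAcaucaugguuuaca
hsa-miR-16-5p: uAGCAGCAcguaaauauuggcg
hsa-miR-32-5p: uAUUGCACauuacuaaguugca
hsa-miR-148b-3p: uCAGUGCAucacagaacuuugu
MiR-15a, miR-15b and miR-16 share the seed AGCAGCA, and the other 3 each have a seed of their own. Over 22 positions, miR-15a and miR-15b were identical at 18, miR-15a and miR-16 at 16, and miR-15b and miR-16 at 14.

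The hairpins are shown because the array clusters are annotated to these microRNA genes, not to mature strands, and because each MIR15 hairpin has a MIR16 hairpin close by that was measured on a cluster of its own. Capitals mark the mature strand named above.
MIR21, chr17:59841266-59841337, plus strand: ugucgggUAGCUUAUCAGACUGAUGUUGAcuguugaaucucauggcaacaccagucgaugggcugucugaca
MIR15A, chr13:50049119-50049201, minus strand: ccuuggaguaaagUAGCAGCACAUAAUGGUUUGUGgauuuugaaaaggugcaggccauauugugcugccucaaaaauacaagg
MIR16-1, chr13:50048973-50049061, minus strand: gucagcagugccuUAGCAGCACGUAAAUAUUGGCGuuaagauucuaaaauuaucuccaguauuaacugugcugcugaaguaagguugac
MIR15B, chr3:160404588-160404685, plus strand: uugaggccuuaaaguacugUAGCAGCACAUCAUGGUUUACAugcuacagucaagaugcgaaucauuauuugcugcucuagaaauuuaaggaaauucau
MIR16-2, chr3:160404745-160404825, plus strand: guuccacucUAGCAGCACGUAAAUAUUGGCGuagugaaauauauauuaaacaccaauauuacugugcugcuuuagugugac
MIR32, chr9:109046229-109046298, minus strand: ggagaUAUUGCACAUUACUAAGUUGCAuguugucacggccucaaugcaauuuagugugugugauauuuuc
MIR148B, chr12:54337216-54337314, plus strand: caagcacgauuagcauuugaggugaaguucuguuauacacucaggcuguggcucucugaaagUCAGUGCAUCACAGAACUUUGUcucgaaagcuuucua
Which probes of a cluster lie inside its hairpin was not analysed here, so a value may reflect the hairpin, its flanks or the longer transcript. On GRCh38.p14, 57 bases separate the hairpins of MIR15A and MIR16-1, and 59 separate those of MIR15B and MIR16-2.

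All 5 microRNA clusters were between 1.49-fold and 1.81-fold lower with selamectin, while 4 of the 5 host genes had a small positive difference. For each of the 5 microRNAs, the 3 selamectin arrays lay below the 3 untreated arrays. Groups separated in that way for 9.37% of all single-symbol clusters, and for 8.67% of the 173 microRNA clusters. All 5 also passed an adjusted p of 0.05 in limma over 19460 clusters, where 2.24% of clusters passed as lower, as did 2.89% of the microRNA clusters; these counts follow from how the 5 were chosen. None of the 5 hosts passed in limma, against 4.51% of all clusters in either direction. VMP1 was higher and TMEM245 lower at an unadjusted p under 0.05, as were 2250 higher and 1622 lower of all 19460 clusters. An array reads the pooled RNA of a culture, so less precursor in each cell and fewer cells that hold it cannot be told apart.

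MIR21, whose mature product represses several tumour suppressors, had log2 values of 7.83, 7.45 and 7.30 on selamectin arrays 1 to 3 and of 8.60, 8.59 and 7.96 on untreated arrays 1 to 3. The means were 7.53 ± 0.27 with selamectin and 8.38 ± 0.37 untreated (SD, n = 3 each), a log2 difference of -0.86 with a 95% interval of the fit from -1.26 to -0.46, or 1.81-fold lower. Untreated array 3 stood well below the other untreated arrays and close to selamectin array 1, and the groups did not overlap. VMP1, a membrane protein of the endoplasmic reticulum needed to form autophagosomes, had 12.27, 12.36 and 12.36 on the selamectin arrays and 12.14, 12.22 and 12.07 on the untreated arrays. All 3 selamectin values lay above the untreated ones, a separation seen for 15.8% of all clusters, but the difference was 0.18 log2 units (interval 0.02 to 0.35). MIR21 and its host therefore lay on opposite sides of the untreated level.

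MIR15A had log2 values of 5.71, 5.91 and 5.68 with selamectin and of 6.95, 6.36 and 6.52 untreated. The means were 5.77 ± 0.12 and 6.61 ± 0.31 (SD, n = 3 each), a difference of -0.85 (interval -1.14 to -0.55), or 1.80-fold lower. The gap between the highest selamectin array and the lowest untreated array was wider than the spread among the selamectin arrays. DLEU2, the noncoding host transcript, had 9.37, 9.39 and 9.89 with selamectin and 9.62, 9.07 and 9.33 untreated. The groups overlapped, and the difference was 0.21 (interval -0.15 to 0.57). MIR16-1, the hairpin next to MIR15A in the same host, had 5.31, 5.29 and 5.14 with selamectin and 5.24, 5.26 and 5.25 untreated. Its difference was -0.0038 (interval -0.14 to 0.13, limma adjusted p = 0.98), against -0.85 for MIR15A.

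MIR15B, which has the same seed as MIR15A, had 5.03, 5.16 and 5.12 with selamectin and 6.08, 5.90 and 5.36 untreated. The means were 5.10 ± 0.06 and 5.78 ± 0.37 (SD, n = 3 each), a difference of -0.68 (interval -0.99 to -0.36), or 1.60-fold lower. Here too untreated array 3 was the lowest of its group and lay close to the selamectin arrays, and the untreated spread was the wider one. SMC4, an ATPase subunit of the condensin complexes that compact chromosomes in mitosis, had 11.71, 11.72 and 11.97 with selamectin and 11.79, 11.50 and 11.77 untreated. These overlapped, with a difference of 0.12 (interval -0.11 to 0.35). MIR16-2, the neighbour of MIR15B, had 4.65, 4.82 and 4.70 with selamectin and 4.90, 4.73 and 4.74 untreated. Its groups overlapped and it differed by -0.06 (interval -0.21 to 0.08, limma adjusted p = 0.64).

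At both MIR15/MIR16 loci the MIR15 cluster was lower and the MIR16 cluster was not called. The untreated MIR16 clusters were dimmer. Among all clusters, MIR16-1 stood at percentile 7.77 with selamectin and 8.42 untreated, and MIR16-2 at 1.58 with selamectin and 2.25 untreated. MIR15A stood at percentile 15.6 with selamectin and 27.5 untreated, and MIR15B at 5.80 with selamectin and 16.4 untreated. The part of this difference in level was not tested.

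MIR32 had 5.15, 4.91 and 5.05 with selamectin and 6.01, 5.68 and 5.90 untreated. The means were 5.04 ± 0.12 and 5.86 ± 0.17 (SD, n = 3 each), a difference of -0.83 (interval -1.03 to -0.63), or 1.77-fold lower. The spread was small in both groups and the gap between them was clear. TMEM245, a multi-pass membrane protein whose function is not well described, had 11.70, 11.62 and 11.44 with selamectin and 11.93, 11.75 and 11.98 untreated. It was the only host whose selamectin arrays all lay below the untreated arrays, with a difference of -0.30 (interval -0.51 to -0.09), or 1.23-fold lower. Host and microRNA lay on the same side here, and the microRNA difference was 0.53 log2 units further down.

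MIR148B had 5.26, 5.14 and 5.15 with selamectin and 5.63, 5.70 and 5.95 untreated. The means were 5.18 ± 0.06 and 5.76 ± 0.17 (SD, n = 3 each), a difference of -0.58 (interval -0.77 to -0.39), or 1.49-fold lower. It was the smallest of the 5 differences, and the selamectin arrays lay close together. COPZ1, the zeta subunit of the coatomer coat that carries cargo back from the Golgi to the endoplasmic reticulum, had 13.27, 13.27 and 13.06 with selamectin and 13.28, 13.06 and 13.16 untreated. The COPZ1 groups overlapped almost fully, with a difference of 0.03 (interval -0.15 to 0.22).

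**Figure D1:**
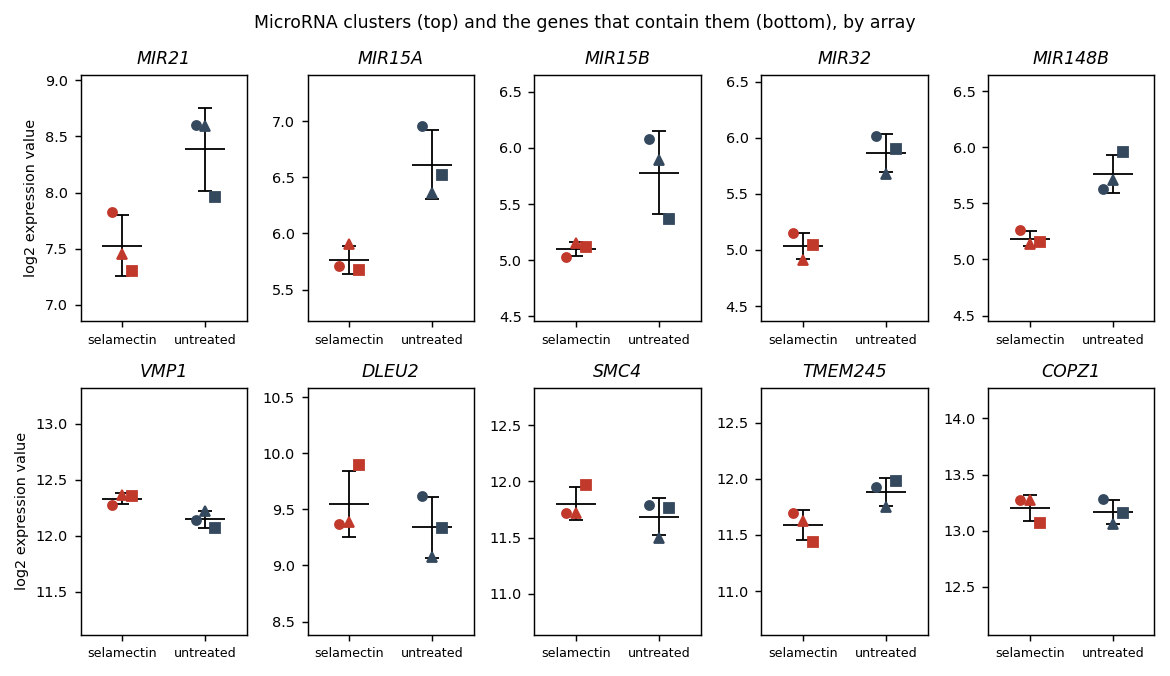
Log2 expression values of the 5 microRNA clusters (top) and of the gene that contains each (bottom), with selamectin arrays left and untreated arrays right. Circles, triangles and squares are replicates 1, 2 and 3, bars are the mean ± SD (n = 3), and every panel spans the same number of log2 units; the groups are apart for all 5 microRNAs and overlap for DLEU2, SMC4 and COPZ1.

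The array that stood lowest among the untreated cultures was not the same for each microRNA. Untreated array 3 was the lowest for MIR21 and MIR15B, array 2 for MIR15A and MIR32, and array 1 for MIR148B, where array 3 was the highest. All of the 5 microRNAs except MIR21 had a mean over all arrays below 6.44, the lower quartile of all clusters. Their selamectin means lay between percentile 4.94 (MIR32) and 15.6 (MIR15A), against 16.2 (MIR148B) to 27.5 (MIR15A) untreated, while MIR21 stood at 39.9 with selamectin and 52.3 untreated. The hosts were all brighter, from percentile 69.8 to 99.1 with selamectin and 66.7 to 99.1 untreated.

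Other microRNA genes that share a seed with a member did not pass the test. For the AGCAGCA seed, MIR195 had a mean log2 value of 6.46 ± 0.23 with selamectin and 6.53 ± 0.04 untreated (SD, n = 3 each), a difference of -0.06 (limma adjusted p = 0.79). For the AUUGCAC seed of MIR32, MIR25 had a difference of 0.21 (interval -0.02 to 0.43, adjusted p = 0.29) and MIR92A2 one of -0.14 (interval -0.27 to -0.02, adjusted p = 0.20). MIR92A2 was the only one of these relatives with all 3 selamectin arrays below the untreated ones. That separation was seen for 8.67% of the 173 microRNA clusters and 9.37% of all clusters. For the CAGUGCA seed of MIR148B, MIR148A differed by -0.10 (adjusted p = 0.37) and MIR152 by -0.05 (adjusted p = 0.76). MIR590, which shares the seed of MIR21, was not analysed here. Each of the 5 except MIR21 thus had at least 1 measured locus with its seed that was not called.

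**Figure D2:**
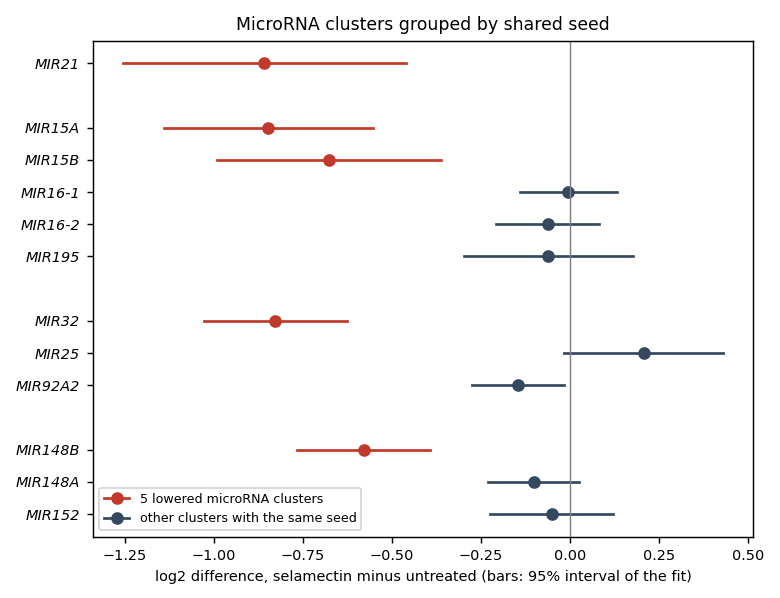
Log2 differences, selamectin minus untreated, with 95% intervals of the fit, for the 5 lowered microRNA clusters and for other measured clusters with the same seed, in blocks by seed. The 5 lie between -0.86 and -0.58, while the relatives lie between -0.14 (MIR92A2) and 0.21 (MIR25).

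Among all 173 microRNA clusters, the 5 were the only ones that passed in limma in either direction. At an unadjusted p under 0.05, 12 were lower and 7 higher, the 5 included, against 1622 lower and 2250 higher of all 19460 clusters. The median difference over the other 168 was 0.02, against 0.04 for all 19460 clusters, and 70 of the 168 had a negative difference. The median log2 value of the 173, the 5 included, was 5.39, 5.44 and 5.36 on selamectin arrays 1 to 3. On each untreated array it was 5.53, and the cause of this gap was not tested. MIR186 was the nearest to the 5, with a difference of -0.59, past that of MIR148B in size. Its values were 4.95, 5.22 and 5.53 with selamectin and 6.31, 5.74 and 5.41 untreated, which overlap, and its limma adjusted p was 0.13. The next lowest were MIRLET7F1 at -0.36, MIR99A at -0.35 and MIRLET7G at -0.28, none of which passed (adjusted p = 0.18, 0.11 and 0.074).

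The hairpins of the 5 had fewer G and C bases than most. Their GC content was between 36.7% (MIR15B) and 48.6% (MIR21), with a median of 42.2%, and of 150 other microRNA clusters with a hairpin sequence the median was 50.0%, with 37 at or below 42.2%. Over those 150, GC content and difference had a Pearson r of 0.36 and a Spearman rho of 0.41, a description over clusters that share the same 6 arrays. Mean log2 value and difference had a Spearman rho of 0.25 over the same 150. Among the 69 others with a GC content no higher than that of MIR21, the median difference was -0.03 and 40 were negative, with values from -0.59 to 0.21. The part of base composition or of signal level in the low values of the 5 was not tested.

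**Figure D3:**
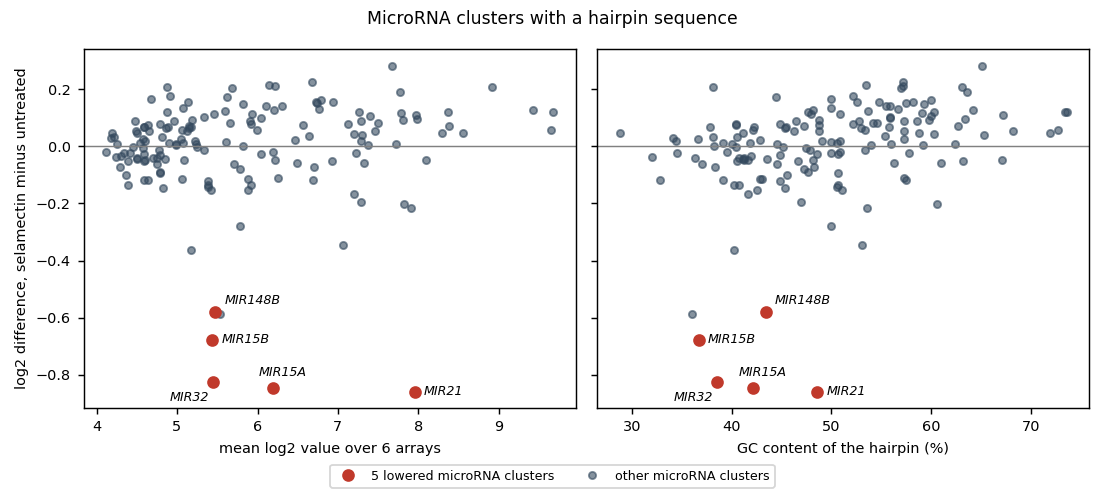
Log2 difference, selamectin minus untreated, of 155 microRNA clusters with a hairpin sequence, against the mean log2 value over 6 arrays (left) and against the GC content of the hairpin in percent (right). The 5 lowered clusters stand at -0.58 and below, with MIR186 the only other cluster beyond -0.40.

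Whether microRNAs and hosts differ alike elsewhere on the array was described over all other pairs found by position and strand. There were 58 such pairs of clusters over 48 host genes, and these include MIR16-1 and MIR16-2, which share the hosts DLEU2 and SMC4. The signs were equal in 35 of the 58 (60.3%), and the 2 differences had a Pearson r of 0.08 and a Spearman rho of 0.07 across pairs. The microRNA lay below its host in 36 of the 58, and its difference minus that of the host ran from -0.92 to 0.77 with a median of -0.05. In the 5 pairs described here this quantity was -1.06 for MIR15A, -1.04 for MIR21, -0.79 for MIR15B, -0.61 for MIR148B and -0.53 for MIR32. Among the other pairs, 4 of the 48 hosts passed in limma, against 4.51% of all clusters in either direction, and no microRNA did. EML2 had a difference of -0.97 (limma adjusted p = 0.0032), and MIR330 inside it had -0.20. MIR31HG had 0.79 (adjusted p = 0.014), and MIR31 inside it had -0.14. PDE2A had 0.78 (adjusted p = 0.018), and MIR139 inside it had 0.05. NFYC had 0.47 (adjusted p = 0.041), and inside it MIR30C1 had 0.01 and MIR30E -0.15.

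**Figure D4:**
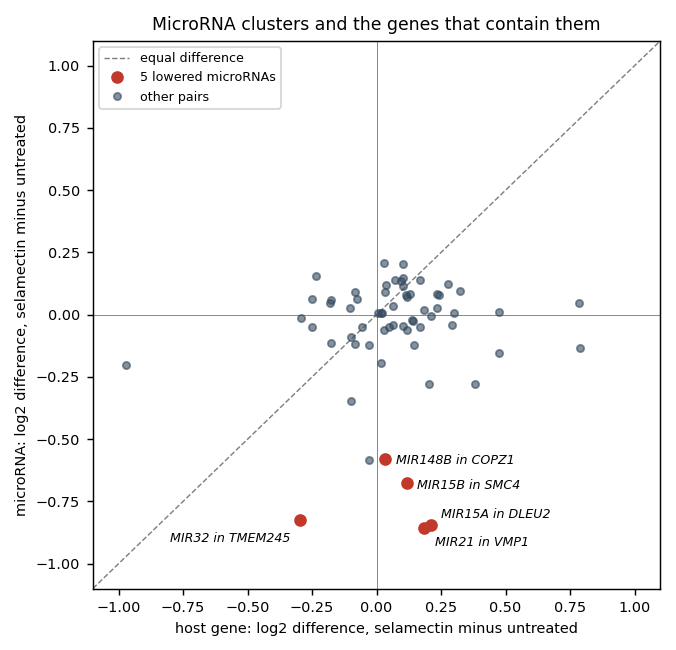
Log2 difference, selamectin minus untreated, of microRNA clusters (vertical) against that of the gene containing each (horizontal), for the 5 lowered microRNAs and 58 other pairs, with a dashed line where both are equal. The 5 microRNAs lie at -0.58 and below, as does MIR186 of the other pairs at -0.59, and MIR32 with TMEM245 is the only one of the 5 pairs in which both values are below 0.

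Neighbours were the nearest genes with a single-symbol cluster, 3 before and 3 after each host, without microRNA genes and genes overlapping the host. Of these 30, 1 rose and none fell, a share close to the 2.27% and 2.24% of all clusters. The median difference was 0.04, against 0.04 for all clusters. The gene that rose was ZNF385A, a zinc finger protein next to COPZ1, with 8.79 ± 0.11 with selamectin and 8.38 ± 0.07 untreated (SD, n = 3 each), a difference of 0.41 (limma adjusted p = 0.040). Around SMC4 the lowest value was that of SCARNA7, a small Cajal body RNA, at -0.50 (adjusted p = 0.11). Around VMP1 all 6 neighbours lay between -0.13 and 0.21. Around TMEM245 the values ran from -0.23 (EPB41L4B) to 0.39 (ABITRAM, adjusted p = 0.070). EPB41L4B, like TMEM245, had all 3 selamectin arrays below the untreated ones without passing (adjusted p = 0.20). A fixed list of genes from the 13q14 region that holds DLEU2 and MIR15A had positive differences for 6 of 6 measured, DLEU2 included. They lay between 0.13 (DLEU7) and 0.34 (DLEU1), without a call in limma. The list does not hold every measured gene there. Of the neighbours of DLEU2 outside it, ST13P4 stood at -0.12, KPNA3 at 0.06 and CTAGE10P at 0.15. Of all 19460 clusters, 7272 had a negative difference, so positive ones were the more common. At an unadjusted p under 0.05, 4 of the 6 were higher, against 2250 of all 19460. DLEU1, the noncoding gene near DLEU2, had a difference of 0.34 with an adjusted p of 0.0503, and RB1, the retinoblastoma tumour suppressor, had 0.33 (adjusted p = 0.065). SPRYD7 stood at 0.30 and RNASEH2B, a subunit of ribonuclease H2, at 0.26.

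Of 29 clusters for 26 genes that make and use microRNAs, none passed in limma, against 4.51% of all clusters, a share at which a list of this size would hold few calls. At an unadjusted p under 0.05 there was 1 higher (TARBP2, a partner of DICER1, at 0.31, adjusted p = 0.16) and 1 lower (AGO4, an Argonaute protein, at -0.34, adjusted p = 0.15). Over all 19460 clusters, 2250 were higher and 1622 lower by that measure. LIN28A, which blocks let-7 processing, stood at 0.28 on 1 cluster and -0.06 on the other, and AGO3 at -0.18. The median difference was 0.04, the same as for all clusters. For the core steps the differences were -0.05 for DROSHA, 0.12 for DGCR8, 0.09 for XPO5, -0.0026 for DICER1 and 0.02 for AGO2, of which the widest interval ran from -0.25 to 0.24 (DICER1).

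Reported targets of the 5 microRNAs showed 1 rise and 4 falls over 4 lists, which share some genes. The lists hold genes named in work on other cells, and a change in RNA level is only one of the ways in which a target can respond. Background for these counts is 2.27% of all clusters called higher and 2.24% called lower.

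Of 27 clusters for 17 reported miR-21 targets, 1 rose and 1 fell. LRRFIP1, a regulator of transcription and innate sensing, rose on 1 of its 10 clusters, with 9.93, 10.23 and 10.09 with selamectin and 9.54, 9.48 and 9.48 untreated, a difference of 0.59 (limma adjusted p = 0.00995). The other LRRFIP1 clusters did not pass, and 1 of the 10 had a negative difference of -0.28. SATB1, a chromatin organiser, had 5.32 ± 0.04 with selamectin and 5.64 ± 0.05 untreated (SD, n = 3 each) and fell by 0.31 log2 units (limma adjusted p = 0.018). SERPINB5, the protease inhibitor maspin, stood at 0.34 (adjusted p = 0.054), and RECK, a membrane inhibitor of metalloproteinases, at -0.32 (adjusted p = 0.13). PDCD4, the translation inhibitor most often tied to miR-21, had a difference of -0.02 (interval -0.20 to 0.16), and TPM1, a tropomyosin, one of 0.02. The median over the 27 clusters was 0.02, and it leans on LRRFIP1, which holds 10 of them, 9 with a positive difference. LRRFIP1 lost its call without selamectin array 2 or untreated array 3, and SATB1 without selamectin array 2, untreated array 1 or untreated array 3 (adjusted p up to 0.055 and 0.088).

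Of 17 clusters for 15 reported miR-15/16 targets, 1 fell and none rose. WEE1, the kinase that holds CDK1 inactive before mitosis, fell on 1 of its 3 clusters, with 8.30, 8.004 and 8.47 with selamectin and 9.05, 9.02 and 8.88 untreated, a difference of -0.72 (limma adjusted p = 0.00995). Its other clusters stood at -0.39 and -0.20 without passing (adjusted p = 0.13 and 0.24), and all 3 were negative. PPM1D, a phosphatase that opposes p53, stood at 0.35 (adjusted p = 0.054) and CHEK1, a checkpoint kinase, at 0.25. The best known targets lay near 0: BCL2, the survival protein, at -0.08, CCND1, cyclin D1, at 0.02 and CCNE1, cyclin E1, at 0.17 (adjusted p = 0.41). The median was 0.04. WEE1 lost its call without untreated array 1 (adjusted p = 0.054).

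None of 7 measured miR-32 family targets passed in limma, and 0 had an unadjusted p under 0.05. Their differences ran from -0.08 (KLF4, a transcription factor) to 0.09 (ITGA5, an integrin subunit that is also a neighbour of COPZ1). BCL2L11, the pro-apoptotic protein BIM, stood at -0.02, FBXW7, a ubiquitin ligase subunit, at -0.06 and TOB1, an antiproliferative protein, at -0.01. MAP2K4, a stress kinase, and CDKN1C, a cell cycle inhibitor, both stood at 0.05.

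Of 14 clusters for 13 reported miR-148 family targets, 2 fell and none rose, and the median was -0.23. IGF1R, the insulin-like growth factor receptor, fell on 1 of its 2 clusters, with 9.33, 9.20 and 9.42 with selamectin and 10.06, 9.89 and 10.12 untreated, a difference of -0.71 (limma adjusted p = 0.0055). Its other cluster stood at -0.36 (adjusted p = 0.092). IRS1, the insulin receptor substrate that docks on that receptor, fell by 0.48 log2 units (adjusted p = 0.016), and lost its call without selamectin array 2 or untreated array 1 (adjusted p up to 0.070). ABCA1, a cholesterol exporter, stood at -0.50 (adjusted p = 0.055), DNMT3B, a DNA methyltransferase, at -0.31 (adjusted p = 0.069) and DNMT1 at -0.02. At an unadjusted p under 0.05, 7 clusters were lower and 1 higher, against 1622 lower and 2250 higher of all 19460. A negative difference was found for 9 of the 14, against 7272 of all 19460.

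Transcription factors reported to act at these loci gave no call in limma among 11 measured, against 4.51% of all clusters in either direction. Before adjustment, 3 of the 11 had a limma p below 0.05 with a positive difference, and 0 with a negative one. The array-wide background for this looser cut was 2250 positive and 1622 negative differences among 19460 clusters. FOS, an AP-1 subunit reported at the MIR21 promoter, stood at 0.86 (adjusted p = 0.054), and its partner JUN at 0.68 (adjusted p = 0.32). STAT3, reported at the same promoter, stood at 0.22 (adjusted p = 0.12), and PAX5, a B cell factor reported at the MIR15A locus, at 0.25 (adjusted p = 0.20). NFIB, reported at the MIR21 promoter and itself a reported miR-21 target, stood at -0.17 (adjusted p = 0.32).

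Among protein partners of the hosts, 1 coatomer gene fell and no condensin gene passed, against 4.51% of all clusters in either direction. Of 8 condensin subunits, SMC4 included, none passed in limma, with 2 lower at an unadjusted p under 0.05, against 1622 of all 19460 clusters. These 2 were NCAPD3 at -0.25 (adjusted p = 0.098) and NCAPD2 at -0.16. SMC2, the ATPase partner of SMC4, stood at 0.11. The other subunits stood at -0.21 (NCAPG2), 0.14 (NCAPG), 0.08 (NCAPH) and 0.01 (NCAPH2). Of 10 coatomer and ARF1 genes, COPB2, the beta-prime subunit, fell by 0.38 log2 units (limma adjusted p = 0.021), with 11.95, 11.90 and 11.91 with selamectin and 12.37, 12.20 and 12.32 untreated. COPZ2, the paralog of COPZ1 and itself the host of MIR152, stood at -0.06, beside -0.05 for MIR152. COPB2 lost its call without selamectin array 2, untreated array 1 or untreated array 3 (adjusted p up to 0.10).

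Of 16 clusters for the 15 genes of the early autophagosome list, VMP1 included, 2 fell and none rose, against 2.24% and 2.27% of all clusters. WIPI1, a lipid-binding protein of the growing autophagosome, had 9.29, 9.14 and 8.54 with selamectin and 9.79, 10.11 and 9.78 untreated, a difference of -0.91 (limma adjusted p = 0.018). EPG5, which is on the list but acts later, as a tether for fusion with lysosomes, fell by 0.43 log2 units (adjusted p = 0.037). TMEM41B, a lipid scramblase that works with VMP1, stood at -0.31 (adjusted p = 0.0998), on the other side of 0 from VMP1. WIPI1 lost its call without any one untreated array (adjusted p up to 0.064), and EPG5 without any one array except untreated array 2 (adjusted p up to 0.13).

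**Figure D5:**
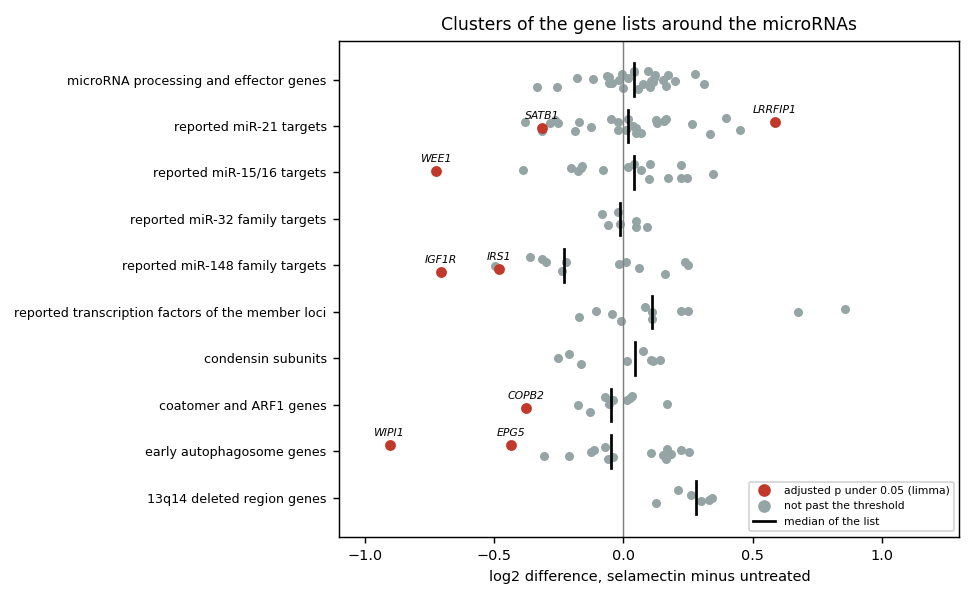
Log2 difference, selamectin minus untreated, of each cluster in the 10 gene lists around the microRNAs and their hosts, with the median of each list as a black bar. Red points passed an adjusted p of 0.05 in limma: LRRFIP1 was the only rise, and SATB1, WEE1, IGF1R, IRS1, COPB2, WIPI1 and EPG5 fell.

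The clusters whose values followed each microRNA most closely over the 6 arrays were named by Pearson correlation, a description in which the difference between groups takes a large part. For MIR21 they were DSE, an epimerase of dermatan sulfate, SPATA25 and BCO2, a carotenoid oxygenase, with r from 0.979 to 0.985 and differences of -0.41, -0.22 and -0.26. For MIR15A they were RIMKLB, GRIK2, a kainate receptor subunit, and CCDC136, with r of 0.996 to 0.997, of which RIMKLB fell by 0.56 log2 units (limma adjusted p = 0.017). For MIR15B they were MTHFD1L, a mitochondrial folate enzyme, WDR64 and IFNA16, with r from 0.988 to 0.997, although these 3 had differences of only -0.05, -0.04 and -0.08. For MIR32 they were ITPR1, a calcium release channel, MAN2A1, a Golgi mannosidase, and LGSN, with r of 0.997 to 0.999, and these 3 fell by 0.46, 0.58 and 0.97 log2 units (limma adjusted p = 0.0205, 0.0077 and 0.0045). For MIR148B they were MECOM, a transcription factor, KLRC1 and SERAC1, with r from 0.990 to 0.994 and differences of -0.18, -0.07 and -0.23. No host was among these genes.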

How the data were processed

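The authors deposited a log2 table of 33297 transcript clusters by 6 arrays. Tools listed, per the submitters' processing notes, are Affymetrix Expression Console, RMA and Transcriptome Analysis Console, with neither versions nor roles. No header states the log base, and log2 is taken from RMA and the value range. RMA as commonly run makes arrays alike and compresses dim signals. Array medians lay between 7.47 and 7.51. For the array design, the build is not given in the sources. Symbols came from the platform annotation, where 19460 clusters had 1 symbol, 1754 several and 12083 none; 19429 were found by Entrez number in RefSeq.

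All 19460 single-symbol clusters entered 1 linear model in limma 3.58.1 (R 4.3.3), with eBayes variances trended on intensity. Differences are selamectin minus untreated and tests are two-sided, with Benjamini-Hochberg adjustment and a threshold of 0.05. The fit was tested on simulated data. The number of arrays limits precision, with a median standard error of 0.09 on the log2 scale. P-values measure the spread between these 6 arrays only. Scan dates and other batches were not analysed here.

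The members, the lists and the alternatives were chosen with earlier results of these data known. Named were the members, microRNAs sharing a seed or host, and list genes that passed or else had the 4 smallest p. All genes of lists under 10 were named too. So were the 3 nearest measured genes on either side of each host and the 3 clusters most correlated with each microRNA. Core processing genes, PDCD4, TPM1, BCL2, CCND1, CCNE1, JUN, COPZ2 and the microRNAs with the next lowest differences were added after their values were seen. The called hosts of the other pairs, with their microRNAs, were added in the same way. Same-numbered arrays had correlations of their deviations of -0.02, 0.24 and -0.14, so the numbers were not taken as pairs.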

Additional observations from a re-analysis of the deposited data

How the results depend on the processing

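The differences of MIR21, MIR15A, MIR15B, MIR32 and MIR148B stayed negative in each alternative that kept their clusters (14 for each, 15 for MIR21). These signs were largely fixed in advance. The fits without the trend, with the robust option or with the replicate block return the same difference by construction. So do those with all clusters or with 1 cluster for each gene. With the groups apart for all 5, leaving out any one array could not turn the sign. Leaving out clusters below the lower quartile or the median removed most of the 5 microRNAs by construction, so that 1 and 0 of them were called, as of all microRNA clusters. The call count was 3 with array weights, 2 with all clusters of the table and 3 at a threshold of 0.01, 4 with the robust fit, where MIR15B lost its call (adjusted p = 0.069), and between 3 and 5 with any one array left out. MIR21 lost its call without selamectin array 2 (difference -0.82), untreated array 1 (-0.75) or untreated array 2 (-0.75), and MIR15B without selamectin array 1 (-0.64), selamectin array 2 (-0.70), untreated array 1 (-0.53) or untreated array 2 (-0.62). With array weights, which gave untreated array 3 a weight of 5.13, MIR21 stood at -0.48 and MIR15B at -0.38. In that fit 2 of the 5 hosts were called, where 1847 of all 19460 clusters were called higher and 1547 lower. MIR32 and MIR148B passed in all 14. Of all microRNA clusters, 9 were called lower and 6 higher with array weights, 2 lower with all clusters, 3 at 0.01, and 3 to 6 lower and 0 higher with any one array left out.

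Among hosts, VMP1, DLEU2 and SMC4 stayed positive and TMEM245 negative in all 16 alternatives, while COPZ1 was negative in 3. These alternatives, too, include the fits that return the same difference by construction. DLEU2, at 0.21 with all arrays, stood at 0.04 without selamectin array 3, 0.08 without untreated array 2 and 0.35 without untreated array 1. SMC4, at 0.12, stood at 0.03 without selamectin array 3, 0.02 without untreated array 2 and 0.01 with array weights.

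Of all single-symbol clusters, 442 were called higher and 435 lower. These became 104 and 145 with all clusters of the table, 1847 and 1547 with array weights, 79 and 112 at 0.01, and 887 and 760 at 0.1. With any one array left out they ran from 73 to 674 and from 114 to 504: of selamectin arrays, dropping array 1 gave 249 and 340, array 2 gave 86 and 142, and array 3 gave 674 and 504; of untreated arrays, dropping array 1 gave 73 and 114, array 2 gave 284 and 383, and array 3 gave 131 and 121. A fit with the replicate number as a block gave 312 higher and 364 lower and kept all 5 microRNA calls; EPG5 lost its call with it.

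Over all lists, 1 cluster rose and 7 fell. The rises were 2 with a second quantile normalization, 4 and 5 with the 2 filters, 3 without the trend, 3 with the robust fit, 16 with array weights and 6 at 0.1, and 0 to 7 with any one array left out. The falls were 1 with all clusters, 23 with array weights, 2 at 0.01 and 13 at 0.1, and 1 to 8 with any one array left out. LRRFIP1, WEE1 and IGF1R lost their calls with 1 cluster for each gene, since another cluster then stood for them. The share of other microRNA-host pairs with equal signs was 39.7% to 63.8% with any one array left out. Without clusters below the median it was 80.0%, but only the pairs of MIR139, MIR149, MIR197, MIR25 and MIR339 were then left. A share over so few pairs cannot be set beside that over all 58. The cause of these shifts was not tested, apart from the filters and the cluster choice.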
